A study of Mus musculus with 48 samples.

Results

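Cirbp and Rbm3 are the cold-inducible RNA-binding genes of the mouse liver count table, chosen by their symbols, 2 of 22354 genes in the table, and both were among the 13646 genes with enough counts to be tested. Each encodes a small nuclear protein with an RNA recognition motif and a glycine-rich tail, and each is known for a rise of its mRNA and protein when cells or tissues are cooled mildly. In mammals body temperature has a daily rhythm, and the mRNA rhythm of Cirbp in liver is a textbook example of a rhythm that can follow temperature, while heat-induced chaperone genes run the opposite way. CIRBP protein binds mRNAs of the circadian clock, including that of Clock, and RBM3 is studied for its effects on translation and poly(A) site choice.

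Liver RNA came from C57BL/6 mice kept in constant darkness for 36 h and then collected, still in darkness, at 0, 4, 8, 12, 16 and 20 h, which the design text gives as male and 4 to 6 months old. KO mice carried the floxed Bmal1 gene (Bmal1 f/f) with a Cre recombinase driven by aP2, a promoter active in adipocytes and also reported in some other cells, and WT mice were littermate controls whose alleles are not given further in the labels. There were 25 WT and 23 KO libraries, 4 in every group except 5 WT and 3 KO at 16 h (the design text gives 4 throughout), each from a separate mouse per the labels' treatment protocol. The labels do not say how 0 h relates to the former light cycle, and the sources used here give no body temperature.

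The libraries held 12841969 to 13009797 counts without albumin. Hepatocyte markers were high in all of them (summed level 27684 to 71244 CPM over 10 genes), against a labelled cell type of adipocyte. Of the 8 adipocyte markers, Adipoq, Plin1, Lep, Retn and Cfd had a median count of 0, while Cidec, Fabp4 and Lpl had medians of 98.5, 107 and 217.5 counts. All 48 libraries held 3029 to 13969 counts of Xist, the RNA of the inactive X chromosome, and at most 1 count summed over 4 Y-linked genes, which goes against the male sex in the design text; Rbm3 lies on the X chromosome, and both genotypes were alike in this. The targeted gene itself, listed as Arntl, was expressed in both genotypes, with group means of 2.02 to 37.0 CPM in WT and 3.68 to 32.4 CPM in KO. Averaged over the times, its KO minus WT difference was 0.30 ± 0.16 (log2 ± SE, edgeR adjusted p = 0.347). The difference was −1.14 ± 0.39 at 4 h and 1.65 ± 0.43 at 12 h (edgeR adjusted p = 0.132 and 0.498). An edgeR test of whether it varied with time gave an unadjusted p of 5.3e-04 and an adjusted p of 0.509. A gene-level count pools all exons, so it does not check the deleted part. In whole liver, fewer cells of a type and less RNA per cell cannot be told apart.

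In the table's build, mm9, Cirbp (ENSMUSG00000045193) spans chr10:79628730-79635531, overlaps no other row, and ends 158 bases before 1600002K03Rik. Rbm3 (ENSMUSG00000031167) spans chrX:7716101-7723006 and shares 452 bases with 2900002K06Rik, whose counts over all libraries came to 0.161% of those of Rbm3. RefSeq also lists a pseudogene, Rbm3-ps, not analysed here, and reads it may share with Rbm3 are a limit on the Rbm3 counts. Raw counts ran from 166 to 1328 per library for Cirbp and from 395 to 2487 for Rbm3. All levels below are CPM, counts scaled to the library total and a TMM factor, which do not correct for gene length, so levels are compared between groups and never between the genes.

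The sequence just upstream of Cirbp is shown because the response of this gene to mild cold has been mapped to its promoter, through an element bound by the factor SP1. RefSeq's promoter table, on build GRCm38.p6, matched 1 of the 2 genes and gives 2 windows for Cirbp. The 250 bases before the start of its first window, chr10:80167589-80167838 on the plus strand, are printed 5′ to 3′ with matches to the mild cold response element TCCCCGCC and to the GC box GGGCGG, each searched on both strands, in capitals.
Cirbp upstream: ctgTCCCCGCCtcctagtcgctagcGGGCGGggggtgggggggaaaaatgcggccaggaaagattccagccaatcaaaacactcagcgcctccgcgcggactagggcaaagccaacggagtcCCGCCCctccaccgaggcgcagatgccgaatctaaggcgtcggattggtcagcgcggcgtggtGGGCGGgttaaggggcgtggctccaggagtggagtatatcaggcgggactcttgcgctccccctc
The letters of the mild cold response element were found 1 time, from 247 to 240 bases before the start. GC box letters were found 3 times, at 225 to 220 and 65 to 60 bases before it on the plus strand and at 128 to 123 bases on the minus strand. Over all 32851 promoter windows cut to the same 250 bases, 4.64% held TCCCCGCC and 32.7% held GGGCGG, and the motifs do not overlap in this window. CCAAT was present 2 times (33.8% of windows). Neither CACGTG, the E-box bound by CLOCK and BMAL1 (6.02% of windows), nor GAANNTTC, a core of the heat shock element (6.69%), was in these letters. These are matches of letters, not measured sites.

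Cirbp was highest at 4 h and lowest at 16 h in both genotypes. In WT livers its mean was 79.1 ± 26.3 CPM at 4 h and 27.8 ± 9.3 CPM at 16 h (SD, n = 4 and n = 5), a ratio of 2.84, and in KO livers the means were 51.0 ± 26.7 and 22.7 ± 9.3 CPM (n = 4 and n = 3), a ratio of 2.25. Rbm3 was highest later, at 8 h in WT (143 ± 38.9 CPM) and 12 h in KO (108 ± 24.0 CPM), and lowest at 20 h in WT (51.0 ± 24.4 CPM) and 0 h in KO (41.4 ± 1.8 CPM), all with n = 4. The ratio of highest to lowest mean was 2.81 in WT and 2.60 in KO.

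**Figure D1:**
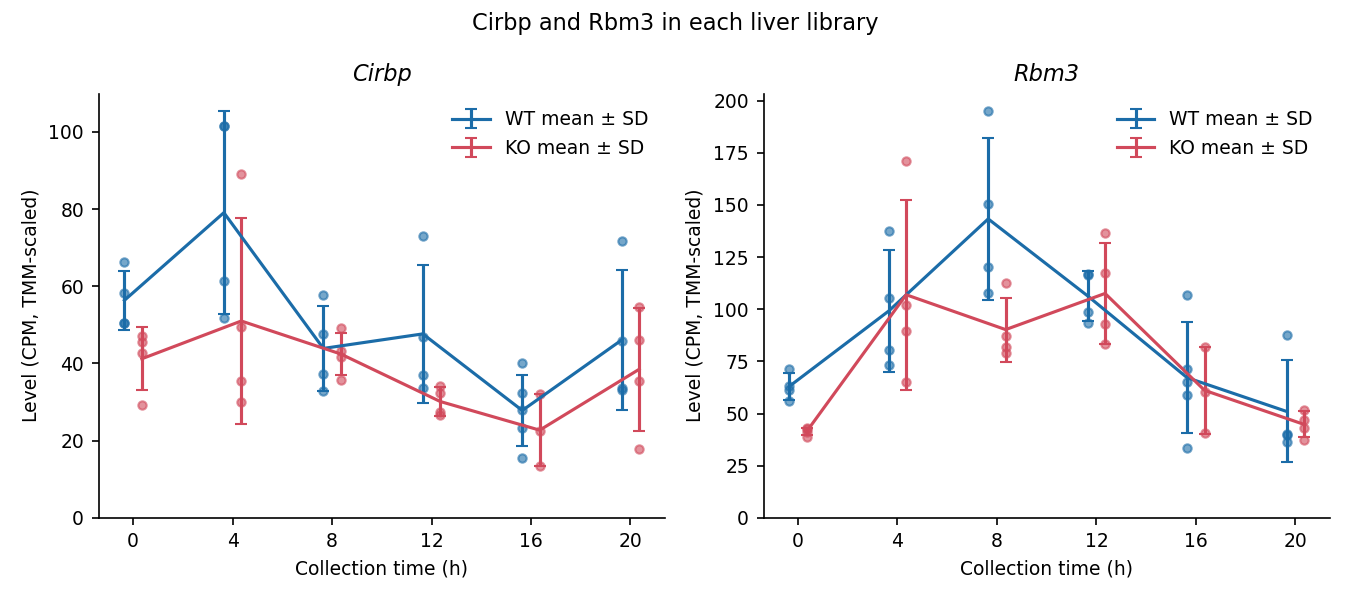
Level of Cirbp (left) and Rbm3 (right) in CPM against collection time in h, with 1 point per library and lines through group means ± SD for WT (blue) and KO (red). Cirbp means are highest at 4 h and lowest at 16 h in both genotypes, while Rbm3 means are highest at 8 h in WT and 12 h in KO.

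The WT livers are described first, library by library in order of replicate number, which carries no rank. At 0 h Cirbp stood at 58.3, 66.3, 50.5 and 50.4 CPM. At 4 h it stood at 102, 101, 61.5 and 51.7 CPM. The 4 h livers fell into a high pair, replicates 1 and 2, and a pair inside the 0 h range. At 8 h the values were 57.8, 32.9, 37.3 and 47.6 CPM, and at 12 h they were 37.1, 33.7, 46.7 and 73.1 CPM. At 16 h, with 5 mice, they were 28.1, 15.5, 40.1, 32.3 and 23.2 CPM. All 5 livers at 16 h were below every liver at 0 h and at 4 h. At 20 h Cirbp stood at 33.7, 45.9, 33.0 and 71.7 CPM, a range that spans the 0 h range and overlaps the 16 h range.

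Among KO livers, Cirbp at 0 h was 42.8, 45.7, 47.1 and 29.3 CPM. At 4 h the values were 89.2, 35.6, 29.9 and 49.3 CPM, with replicate 1 alone above all other KO livers of the study. The remaining 3 livers at 4 h lay within or near the 0 h range. At 8 h Cirbp was 49.2, 35.7, 43.2 and 41.6 CPM, and at 12 h it was 32.3, 27.3, 26.8 and 34.2 CPM. At 16 h it was 22.5, 32.1 and 13.6 CPM, and at 20 h it was 35.4, 46.1, 17.8 and 54.7 CPM. The 16 h and 20 h groups held the lowest KO livers, with coefficients of variation of 40.8% and 41.4%.

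In the order of WT means for Cirbp (4, 0, 12, 20, 8 and 16 h), the step from 8 to 16 h, 16.1 CPM, was the only one between neighbours larger than the larger of the 2 SDs (11.1 CPM). In the KO order (4, 8, 0, 20, 12 and 16 h) no step between neighbours exceeded the larger SD.

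Rbm3 was high over several successive times. In WT it stood at 71.6, 63.1, 56.0 and 61.4 CPM at 0 h and at 73.4, 80.3, 105 and 138 CPM at 4 h. Every WT liver at 4 h was therefore above every WT liver at 0 h. At 8 h it reached 120.2, 195, 150.4 and 108 CPM, and at 12 h it was 117, 116, 98.7 and 93.4 CPM. All 8 of these livers were above all WT livers at 0 h and all but replicate 2 at 16 h, whose 107 CPM lay inside the 8 to 12 h range. The other livers at 16 h were at 71.2, 65.3, 33.5 and 58.8 CPM. At 20 h the values were 36.5, 87.6, 39.6 and 40.3 CPM, of which 3 were close together and replicate 2 stood far above them.

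In KO livers Rbm3 was low and tight at 0 h, with 41.2, 43.1, 42.4 and 38.9 CPM, a coefficient of variation of 4.45%. At 4 h it was 65.2, 102, 89.6 and 171 CPM, all above the 0 h livers but widely spread. At 8 h it was 81.8, 87.2, 113 and 79.2 CPM, and at 12 h it was 136, 83.4, 92.9 and 118 CPM. The 4, 8 and 12 h groups overlap each other, and all 12 livers in them were above all 8 KO livers at 0 h and 20 h. At 16 h the values were 40.7, 60.5 and 82.1 CPM, and at 20 h they were 37.2, 51.8, 43.2 and 46.9 CPM, which overlap the 0 h range. Between neighbours in the order of means, the difference exceeded the larger SD only from 4 to 16 h in WT (32.0 CPM against 29.0) and from 8 to 16 h in KO (29.1 CPM against 20.7).

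A 24 h rhythm was tested for each genotype with a cosine and a sine term in edgeR's quasi-likelihood model, with Benjamini-Hochberg adjustment over all 13646 genes. An amplitude runs from the mean of the fitted curve to its peak, in log2 CPM. Rbm3 passed in both genotypes. Its amplitude was 0.75 ± 0.12 in WT (adjusted p = 5.7e-05) and 0.71 ± 0.12 in KO (adjusted p = 1.7e-04), with fitted peaks at 8.20 ± 0.58 h and 8.91 ± 0.66 h (estimate ± SE). The fitted curve accounted for 65.2% of its variance in WT and 64.3% in KO. For scale, 16.3% of all tested genes passed in WT and 17% in KO, and 15% of the genes called in WT and 17% of those called in KO had a larger amplitude than Rbm3.

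The Cirbp rhythm passed in WT, with an amplitude of 0.57 ± 0.13, a peak at 3.36 ± 0.93 h and an adjusted p of 0.00783. In KO the amplitude was 0.47 ± 0.15 with a peak at 3.56 ± 1.14 h, and the adjusted p of 0.0512 missed the threshold of 0.05. The curve accounted for 45.2% of the variance in WT and 34.1% in KO. With both 16 h groups left out the WT call was lost (amplitude 0.40, edgeR adjusted p = 0.188). Fewer times and livers were then tested, so the weight of the 16 h livers and the loss of data cannot be told apart. In KO the adjusted p lay on either side of the threshold across alternatives, with 0.0424 under RLE scaling, 0.0268 with DESeq2, 0.160 without KO 4 h replicate 1 and 0.197 with both 16 h groups left out.

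A test of equal means over the 6 times, which assumes no shape, gave the same calls. Rbm3 passed in WT (adjusted p = 9.2e-04; 8.55% of genes passed) and in KO (5.7e-04; 9.73% passed). Cirbp passed in WT (0.0178) and not in KO (0.155). Without WT 4 h replicate 1 the WT value for Cirbp was 0.0641, and without replicate 2 it was 0.0653. These are the pair with high Cirbp at 4 h.

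The rhythms were not shown to differ between genotypes. The test of the difference itself, which called 0.00733% of genes, gave an adjusted p of 1.00 for Cirbp and 1.00 for Rbm3, with unadjusted p-values of 0.906 and 0.873. The missed threshold for Cirbp in KO does not show a difference from WT. For both genes the fitted peaks of the genotypes lay closer together than the sum of their standard errors.

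Averaged over the 6 times, the levels of both genes were below WT in the KO livers, and neither difference passed the test. For Cirbp the mean of the group means was 37.7 CPM in KO and 50.1 CPM in WT, and the KO minus WT difference was −0.39 ± 0.13 in log2 units, a change of −23.7% (edgeR adjusted p = 0.124). For Rbm3 these means were 75.3 and 88.3 CPM, and the difference was −0.25 ± 0.11, a change of −15.6% (edgeR adjusted p = 0.264). Over all genes tested, 191 passed (1.4%), 85 higher (0.623%) and 106 lower (0.777%) in KO, 2336 had an unadjusted p under the threshold, and the median change was −0.005. Both differences were negative in each of the 55 alternatives tried, which include leaving out each library.

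The Cirbp result depended on 1 library. Without KO 4 h replicate 1, the KO liver with the highest Cirbp level, the difference over all times was −0.46 with an adjusted p of 0.0342, while 3.55% of all genes passed (2.15% lower in KO). At 4 h alone it was then −1.04 with an adjusted p of 0.0254, but the same step raised the share of all genes called at 4 h from 0.0366% to 24.6%. The step thus changed the calls of many genes and not of Cirbp alone. With this library kept, 3175 of all 13646 genes already had an unadjusted edgeR p under 0.05 at 4 h. Whether this library stood apart from the others was not tested. No label marks it as different.

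**Figure D2:**
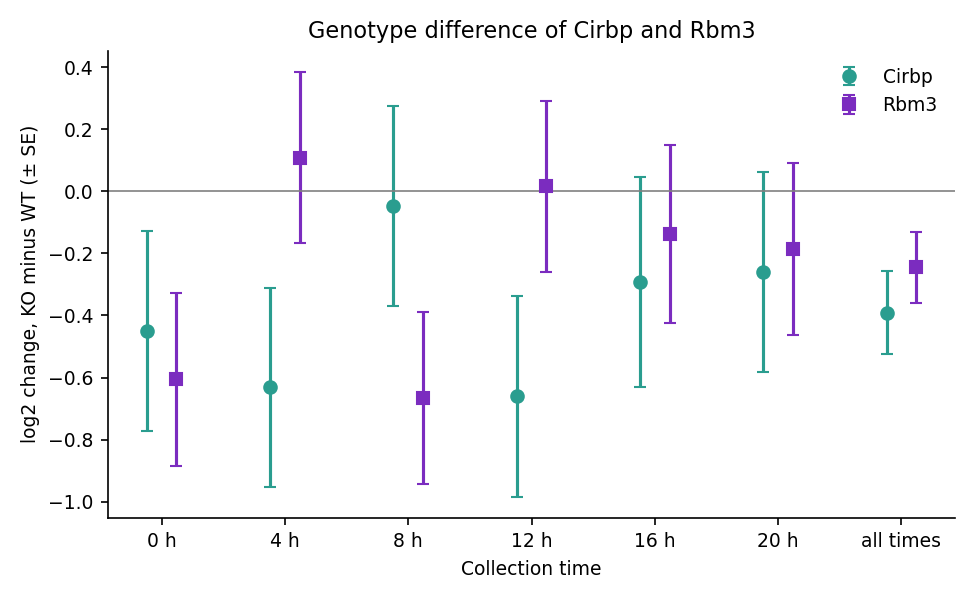
KO minus WT difference of Cirbp (green circles) and Rbm3 (purple squares) in log2 units, with standard errors from edgeR, at each collection time and averaged over all times. The Cirbp differences are below 0 at every time and run from −0.66 at 12 h to −0.05 at 8 h, while those of Rbm3 are near 0 at 4 and 12 h and lowest at 8 h.

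Time by time, the most negative differences of the genes came at different hours, which was not tested as such. Cirbp differed by −0.63 ± 0.32 at 4 h and −0.66 ± 0.32 at 12 h, with −0.45 ± 0.32 at 0 h, −0.05 ± 0.32 at 8 h, −0.29 ± 0.34 at 16 h and −0.26 ± 0.32 at 20 h. Rbm3 differed by −0.61 ± 0.28 at 0 h and −0.67 ± 0.28 at 8 h, with 0.11 ± 0.28 at 4 h, 0.02 ± 0.28 at 12 h, −0.14 ± 0.29 at 16 h and −0.19 ± 0.28 at 20 h. No single-time difference of either gene passed (edgeR adjusted p from 0.225 to 1.00). The WT and KO ranges failed to overlap only at 0 h, for both genes. How many of all genes had ranges that failed to overlap was not counted. The edgeR test called 0.0147% of all genes at 0 h, 0.0366% at 4 h and 0.022% at 16 h. At 8, 12 and 20 h edgeR called 0 genes (248, 600 and 251 with an unadjusted p under 0.05), and DESeq2 called 2, 3 and 0. At 12 h all 4 KO livers had less Cirbp than the WT median, and at 8 h all 4 had less Rbm3 than the WT median. The share of all genes with such a pattern was not counted either. Whether the genotype difference varied with time was tested as an interaction, which called 0.00733% of genes and neither of these (adjusted p = 0.953 for each).

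No correlation between Rbm3 and Cirbp across livers passed the test. The fitted Rbm3 peak came 4.84 h after that of Cirbp in WT and 5.35 h after it in KO. Across WT livers Pearson r was −0.019 (permutation p = 0.930, Spearman rho = 0.032, p = 0.876, n = 25). Across KO livers it was 0.023 (permutation p = 0.919, rho = 0.017, p = 0.940, n = 23). Without the 2 livers farthest from the median of Cirbp, r was 0.080 in WT and 0.115 in KO. Once the mean of each genotype and time was subtracted, the deviations of the 48 livers had r = −0.32 (permutation p within groups = 0.0914, rho = −0.25, p = 0.157), and r = −0.28 without the 2 livers farthest from the median. The p-values of r adjusted over these 3 relations were 0.930, 0.930 and 0.274, and those of rho were 0.940, 0.940 and 0.471. Deviations had opposite signs in 21 livers, 15 of 25 in WT and 6 of 23 in KO, a split that was not tested. With 3 to 5 livers a group, r within a group was negative in 7 of 12 groups and ran from −0.97 (WT 4 h) to 0.95 (KO 0 h). By this measure over all livers, 5258 of 10994 genes were more like Cirbp than Rbm3 was.

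**Figure D3:**
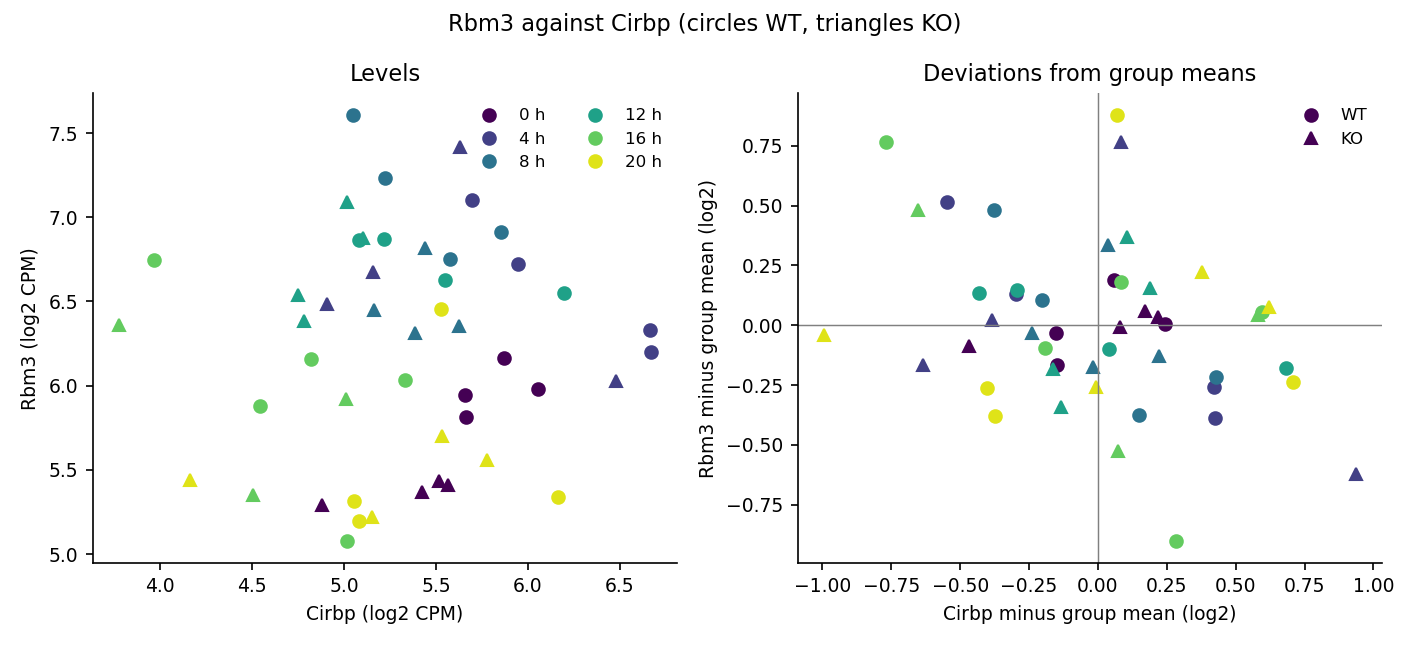
Rbm3 against Cirbp in log2 CPM for each of the 48 livers (left) and after subtracting each group mean (right), with circles for WT, triangles for KO and colours for collection time. In the left panel r is −0.019 in WT and 0.023 in KO, and in the right panel the deviations have r = −0.32.

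The ratio of Rbm3 to Cirbp within a liver cancels the scaling of the library and was followed across groups only. In log2 units the WT means were 0.16 ± 0.17 at 0 h, 0.35 ± 0.90 at 4 h, 1.70 ± 0.71 at 8 h, 1.22 ± 0.65 at 12 h, 1.24 ± 1.01 at 16 h and 0.12 ± 0.72 at 20 h. The KO means were 0.03 ± 0.26, 1.11 ± 1.05, 1.08 ± 0.30, 1.81 ± 0.20, 1.45 ± 0.98 and 0.32 ± 0.66 at the same times. The ratio was thus lower at 0 and 20 h than from 8 to 16 h in both genotypes. At 4 h the genotypes were less alike, with 0.35 ± 0.90 in WT and 1.11 ± 1.05 in KO, the latter above the KO mean at 8 h. This difference at 4 h was not tested. A 24 h curve fitted to it, a test added after the data were seen, had an amplitude of 0.79 ± 0.22 with a peak at 11.1 h in WT (permutation p = 0.00615) and 0.78 ± 0.19 with a peak at 11.3 h in KO (permutation p = 0.00334; 0.00615 for each after adjustment over both). Its mean over the times was 0.80 in WT and 0.97 in KO, a difference of 0.17 ± 0.21 (permutation within times, two-sided p = 0.416).

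The wider families were described from lists of genes named for their known roles. Of 21 tested glycine-rich and hnRNP relatives, proteins that package and splice nuclear RNA, 3 passed the rhythm test in WT and 3 in KO, against 16.3% and 17% of all genes. DESeq2 called 5 in each. Over omissions of a single library the WT count ran from 3 to 5. It was 5 without WT 12 h replicate 3, WT 20 h replicate 2 or KO 16 h replicate 3. The KO count ran from 2 to 6, with 6 without KO 16 h replicate 3. That omission also raised the KO rhythm calls over all genes from 2322 to 3691. Hnrnpl, a splicing regulator, had an amplitude of 0.28 ± 0.05 with a peak at 3.06 h in WT (adjusted p = 8.2e-04), and its level had r = 0.76 with Cirbp over 48 livers. Hnrnpd, which controls mRNA decay, peaked at 6.10 h (0.36 ± 0.10, adjusted p = 0.0137), with r = 0.71 with Cirbp. Hnrnpa3, an hnRNP of the A/B group, peaked at 6.08 h (0.34 ± 0.08, adjusted p = 0.00304), with r = 0.68 with Rbm3 and 0.02 with Cirbp. Rbmx missed the threshold (0.24 ± 0.08, adjusted p = 0.0591). Over the 21 genes, r with Cirbp had a median of 0.11 and ran from −0.55 to 0.76, with 6 negative. With Rbm3 the median was 0.26 and the range −0.55 to 0.68, with 7 negative. None of the 21 passed the genotype test by edgeR or DESeq2 and 3 had an unadjusted p under 0.05, where 1.4% of all genes passed and 17.1% had such a p, and the list median was 0.001 against −0.005 for all genes. The lowest genotype p-values were those of Hnrnph3 (0.16 ± 0.06, adjusted p = 0.194) and Hnrnpu (0.15 ± 0.06, adjusted p = 0.200).

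Cold shock domain genes, which share the name of the bacterial cold response but have a different fold from Cirbp and Rbm3, gave 4 tested members of 8. By edgeR and by DESeq2 none passed in WT (2 with an unadjusted p under 0.05, as had 4293 of all 13646 genes), and by edgeR 1 passed in KO, where 16.3% and 17% of all genes passed. Without WT 4 h replicate 2, 1 passed in WT, which was Csda (amplitude 0.355, edgeR adjusted p = 0.0420). The member that passed in KO was Carhsp1, which binds and stabilises mRNA. Its amplitude was 0.20 ± 0.05 in KO (adjusted p = 0.0165) and 0.14 ± 0.05 in WT (adjusted p = 0.110). With all libraries kept, Csda and Ybx1 had WT adjusted p-values of 0.106 and 0.379. No member passed the genotype test by either tool or had an unadjusted p under 0.05, and the median change was −0.008.

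Genes of temperature-sensitive splicing (SR proteins, their CLK kinases and cofactors) had 20 tested members, of which 4 passed the rhythm test in WT and 1 in KO, where 16.3% and 17% of all genes did. Over omissions of a single library the WT count ran from 2 (without WT 16 h replicate 4) to 5. The KO count ran from 0 to 6. It was 0 without KO 8 h replicate 2, KO 16 h replicate 2 or KO 20 h replicate 1. It was 6 without KO 16 h replicate 3, when the KO calls over all genes rose from 2322 to 3691. In WT, U2af1, a subunit of the factor that reads the 3′ splice site, peaked at 0.43 h (0.32 ± 0.08, adjusted p = 0.0113). Srsf5, an SR protein, peaked at 6.71 h (0.27 ± 0.08, adjusted p = 0.0389). Tra2a, an SR-like activator, peaked at 15.5 h (0.40 ± 0.10, adjusted p = 0.00926) and ran against Cirbp (r = −0.73). Clk3, which phosphorylates SR proteins, peaked at 16.0 h (0.23 ± 0.06, adjusted p = 0.0162). These 4 genes therefore had no common phase. Over the 20 genes, r with Cirbp ran from −0.73 to 0.55, with 12 negative. By genotype none passed with edgeR or DESeq2, 3 had an unadjusted p under 0.05 (17.1% of all genes had), and the median was 0.03. Clk1 (0.29 ± 0.11, adjusted p = 0.182) and Tra2a (0.22 ± 0.10, adjusted p = 0.241) had the lowest p-values.

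Heat-induced chaperones stood opposite to Cirbp in time. Of 21 tested members, 16 passed the rhythm test in WT and 11 in KO, where 16.3% and 17% of all genes did, and the WT peaks of the 16 lay between 12.9 and 18.9 h. The KO count was 6 without KO 20 h replicate 1 and 7 without KO 8 h replicate 3. Hsph1, an HSP110 co-chaperone, peaked at 16.3 h with an amplitude of 1.01 ± 0.13. Hspa1b, an inducible HSP70, peaked at 16.3 h (1.58 ± 0.31), Dnajb1, an HSP40, at 14.6 h (0.55 ± 0.08), and Fkbp4, an HSP90 co-chaperone, at 16.8 h (0.42 ± 0.07). All 4 also passed in KO, with peaks at 16.6 h for Hsph1, 16.9 h for Hspa1b, 15.2 h for Dnajb1 and 19.3 h for Fkbp4. Over 48 livers, 18 of the 21 genes had a negative r with Cirbp (median −0.58, range −0.83 to 0.22) and 16 had a negative r with Rbm3 (median −0.35), against 6761 and 7034 of all 13646 genes.

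**Figure D4:**
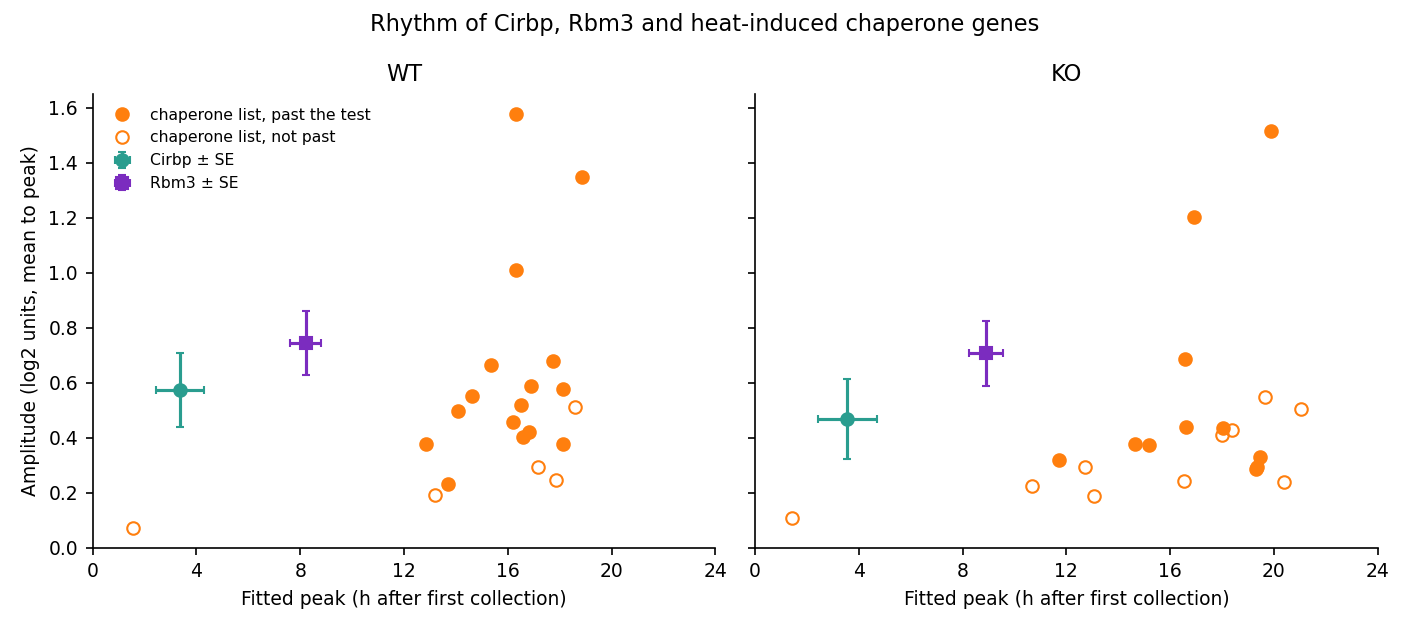
Fitted amplitude (log2 units, mean to peak) against fitted peak (h after the first collection) for Cirbp, Rbm3 (± SE) and 21 heat-induced chaperone genes in WT (left) and KO (right), with filled points past the rhythm test. The 16 chaperone genes past the test in WT peak between 12.9 and 18.9 h, Cirbp near 3.4 h and Rbm3 near 8.2 h.

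For genotype, the KO minus WT change was positive in 19 of 21 genes with a median of 0.19, while over all genes 51.1% of changes were negative and the median was −0.005. No member passed with edgeR, 1 passed with DESeq2, and 12 had an unadjusted p under 0.05, against 1.4% of all genes called by edgeR and 17.1% with such a p. With edgeR 2 members passed without KO 4 h replicate 1, WT 16 h replicate 2 or KO 16 h replicate 1, and 1 without WT 20 h replicate 3. The lowest p-values were those of the mitochondrial chaperonin pair, Hspd1 (0.22 ± 0.06, adjusted p = 0.0773) and Hspe1 (0.32 ± 0.10, adjusted p = 0.106). These genes were measured in the same livers as Cirbp, so the opposite signs are not separate evidence. With both 16 h groups left out, and so fewer times tested, 8 chaperones, 1 hnRNP relative and 1 splicing gene passed in WT. With all times kept, 16, 3 and 4 passed. All genes past the WT rhythm test numbered 2228 with all libraries and 1556 to 2987 over the 55 alternatives. Whether the lists lost more calls than other genes without 16 h was not tested.

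Among genes reported as partners or target mRNAs of the 2 proteins, 11 of 12 were tested, and 2 passed the rhythm test in WT and 1 in KO, where 16.3% and 17% of all genes did. Over omissions of a single library these counts ran from 1 to 3 in WT and from 0 to 3 in KO. The KO count was 3 without KO 16 h replicate 3, when the KO calls over all genes rose from 2322 to 3691. Atr, the kinase of the replication stress checkpoint, peaked at 8.93 h (0.45 ± 0.12, adjusted p = 0.0221) and passed in KO too (adjusted p = 0.0400), with r = 0.81 with Rbm3. Rpa2, a subunit of the protein that coats single-stranded DNA, peaked at 4.03 h in WT (0.36 ± 0.11, adjusted p = 0.0280), with r = 0.77 with Cirbp. Over the 11 genes, r with Cirbp ran from −0.51 to 0.77, with 8 negative. With Rbm3 it ran from −0.59 to 0.81, with 4 negative. Clock, the partner of BMAL1, had an amplitude of 0.42 ± 0.16 with a peak at 21.4 h (adjusted p = 0.0761), and Txn1, a redox protein, one of 0.21 ± 0.06 (adjusted p = 0.0689). Ntrk2, a neurotrophin receptor, was higher in KO, 5.83 against 2.77 CPM (0.98 ± 0.26, adjusted p = 0.0488), a call lost in 33 of 55 alternatives.

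The genes whose pattern was most like that of each member were taken by Pearson r of log2 CPM over the 48 livers among 10993 genes. All of these share the same libraries, times and depth, and the values are a description. Most alike to Cirbp were Tmem203 (r = 0.87), Lrrc29 (0.85), Tab1, a subunit of the TAK1 kinase complex (0.80), Trpt1 (0.80) and the ubiquitin ligase gene Smurf1 (0.79). After subtraction of group means these r stayed between 0.75 and 0.83, so the likeness was also seen among livers of the same group. The genes were, however, picked by r over these same livers. The WT rhythm did not pass for Tmem203, Trpt1 and Smurf1 (edgeR adjusted p = 0.144, 0.168 and 0.123). Most opposite were Ccdc117 (−0.84), Dnaja1, an HSP40 (−0.83), Chordc1, an HSP90 co-chaperone (−0.82), Ahsa2, an activator of HSP90 (−0.82), and Hsp90aa1 itself, the inducible HSP90 (−0.81). Their WT peaks lay from 14.1 h (Dnaja1) to 17.7 h (Hsp90aa1), and r of the deviations ran from −0.67 (Ahsa2) to −0.82 (Dnaja1).

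Rbm3 had another set. Most alike were Rsrc1, an SR-related splicing protein (r = 0.87), Trnau1ap, a factor of selenocysteine incorporation (0.81), Atr (0.81), Exoc6 of the exocyst (0.81) and Bccip (0.81). Their WT peaks ran from 6.81 h (Bccip) to 8.93 h (Atr), around the 8.20 h of Rbm3. The rhythm of Exoc6 did not pass (edgeR adjusted p = 0.0711). After subtraction of group means r ran from 0.59 (Trnau1ap) to 0.79 (Exoc6). Most opposite were Nfil3, a transcriptional repressor of clock-linked genes (−0.84), Lman2l, Dhrs3, Ap2a2 and Gfod2 (−0.83 to −0.80). Their WT peaks lay from 19.2 h (Lman2l) to 22.2 h (Ap2a2), and r of the deviations ran from −0.50 (Gfod2) to −0.74 (Dhrs3). No gene was on the lists of both members, and the r of each of these 10 genes with Cirbp lay between −0.19 and 0.25.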

How the data were processed

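The authors deposited whole-number read counts per gene for 48 liver libraries in 1 table of 22354 genes. The submitters' processing notes name CASAVA, STAR 2.4.1d and build mm9; the sources used here do not give the counting rule. Per the labels' protocols the kit was TruSeq version 2, which does not keep strand, while the deposited table's name holds the word sense. Whether the counting used strand is not given, so overlapping genes may not be told apart. Albumin, which alone carries the table's mark for high expression, was left out of totals and tests, and no column of another sample was present. Totals were nearly equal, and the sources used here do not say how they came to be so. Within-group pairs differed beyond sampling noise (lowest chi-square per degree of freedom 20.7).

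From the counts, edgeR 4.0.16 in R 4.3.3 (TMM scaling, its low-count filter at 10 per library and 15 in total, quasi-likelihood F tests, Benjamini-Hochberg adjustment over the 13646 genes left, threshold 0.05) gave a model of 12 group means and a 24 h cosine model. Amplitudes and peaks came from least squares on log2 CPM with a prior count of 2. Errors of log2 changes are standard errors, those of CPM are SDs. Correlations and ratios used 100000 permutations, two-sided. The code was tested on simulated data. Replicate numbers do not pair the mice (see the alternatives). DESeq2 1.42.0 was an alternative, with other scalings, no filter, omitted libraries or times and a replicate block. Named genes were Cirbp, Rbm3, Arntl, the 5 genes most like and most opposite to each member, and up to 4 members of each list by rhythm p and 2 by genotype p. The values of 1 gene this rule names are left out. The members, lists and rules were chosen with earlier results of these data known. Marker lists for hepatocytes, adipocytes, pancreas, adrenal, immune cells, endothelium and red blood cells are given where they bear on a value.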

Additional observations from a re-analysis of the deposited data

Results flagged for a closer look

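The level of Rbm3 in WT livers at 20 h held 1 value far from the rest: replicate 2 stood at 87.6 CPM, while the other 3 livers were between 36.5 and 40.3 CPM. The gap to its neighbour was 0.926 of the group's range, above the limit of 0.829 for 4 samples. The Cirbp level of the same liver was 45.9 CPM, within the range of its group. Without this liver the Rbm3 difference at 20 h turned from −0.19 to 0.21. Across both genes 22 groups were tested and 1 was marked, and chance marks about 1 in 20.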

How the results depend on the processing

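Over 55 alternatives for most results of Cirbp and Rbm3 (other scalings, no filter on low counts, DESeq2, omitted libraries or times, a replicate block), the Rbm3 rhythm passed in both genotypes in every one. Neither gene passed the interaction or the rhythm difference in any, and Rbm3 passed no genotype test. With both 16 h groups left out, the WT rhythm of Cirbp had an amplitude of 0.402 (adjusted p = 0.188) and its WT time effect an adjusted p of 0.181. Fewer times were then tested. The KO rhythm of Cirbp passed with RLE scaling (amplitude 0.478, adjusted p = 0.0424), with DESeq2 (0.478, 0.0268), with the replicate block (0.467, 0.0493) and in 15 of 48 omissions of a single library. With no scaling factors the WT correlation of the genes was 0.0443.

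Leaving out each library in turn, the Cirbp difference over all times ran from −0.461 to −0.343 and at 4 h from −1.04 to −0.446, and both passed only without KO 4 h replicate 1. Cirbp ran from −0.163 to 0.113 at 8 h, −0.795 to −0.377 at 12 h (the latter without WT 12 h replicate 4), −0.625 (without KO 16 h replicate 2) to −0.0333 (without KO 16 h replicate 3) at 16 h and −0.478 to 0.0238 at 20 h. Rbm3 ran from −0.213 to 0.309 at 4 h, −0.119 to 0.131 at 12 h, −0.422 to 0.105 at 16 h and −0.318 to 0.207 at 20 h. Where a range spans 0, the sign turned without a single liver of that time, and none of those values passed. The amplitude of Cirbp in KO ran from 0.373 to 0.537, and the adjusted p of its WT time effect from 0.00796 to 0.0653. The correlation ran from −0.0896 to 0.0593 in WT and from −0.0714 to 0.0809 in KO. The 3 libraries left out together for unusual gene content were WT 0 h replicate 3, KO 0 h replicate 2 and KO 16 h replicate 2. Without these 3 libraries the change of Carhsp1, −0.014, turned to 0.0168. Over single omissions it ran from −0.0321 to 0.00132. The causes were not tested.

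Gene counts moved more. The genotype difference over all times called 191 genes, 122 without a filter, 356 with DESeq2, 303 without the 3 libraries, 127 with the replicate block and 99 (without KO 16 h replicate 3) to 484 (without KO 4 h replicate 1) over single omissions. At 4 h it called 5 genes, 2 without a filter, 192 with DESeq2, 543 with both 16 h groups out, and 0 to 3354 over single omissions. The time effect called 1882 genes in WT and 2239 in KO with DESeq2. Rhythm counts ran from 1876 to 2987 in WT and 1628 to 3691 (without KO 16 h replicate 3) in KO over single omissions. Over all 55 alternatives the WT count ran from 1556 to 2987. With both 16 h groups out, 8 chaperone genes passed in WT in place of 16.

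The labels give replicate numbers without a meaning. Of 23 same-numbered WT and KO pairs, 14 had deviations correlated above 0.1 over 2000 genes (−0.456 to 0.607), and at no time did all pairs, so they were not taken as pairs. With the replicate block the difference over all times was −0.395 for Cirbp and −0.286 for Rbm3, and that of Rbm3 at 12 h was −0.00302. The block changed no call of the 2 genes but the KO rhythm of Cirbp. The lowest library held 166 counts of Cirbp and 395 of Rbm3, and a difference at a single time had a standard error of 0.28 to 0.34 log2 units.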

Other observations

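Markers of other tissues were high in single libraries. The summed pancreas markers, 7 genes, ran from 4.21 to 312 CPM in KO and from 5.02 to 11.4 CPM in WT, with the highest value in KO 0 h replicate 2. The summed adrenal markers, 5 genes, reached 133 CPM in WT 0 h replicate 3 against a WT median of 2.99 CPM and a KO maximum of 4.94 CPM. In these livers Cirbp stood at 45.7 and 50.5 CPM and Rbm3 at 43.1 and 56.0 CPM. The Rbm3 values were the highest of KO 0 h and the lowest of WT 0 h. Immune and Kupffer markers, 9 genes, ran from 70.8 to 1369 CPM in WT and from 85.4 to 366 CPM in KO, and those of red blood cells, 5 genes, from 25.5 to 443 CPM and from 38.4 to 399 CPM, both highest in WT 16 h replicate 5. That liver had 23.2 CPM of Cirbp and 58.8 CPM of Rbm3. Within the immune and Kupffer sum, Ighm reached 15032 counts in its highest library, against a median of 113. No other gene of that sum exceeded 3882 counts, the highest of Clec4f. Adipocyte markers, 8 genes, summed to 16.8 to 66.2 CPM in WT and 21.0 to 101 CPM in KO, and endothelial markers, 5 genes, to 120 to 229 CPM and 104 to 245 CPM. The part of these cells in the levels of Cirbp and Rbm3 was not tested.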
